A study of Drosophila melanogaster with 6 samples.

Results

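Yolk protein genes and other fat body genes were followed in RNA from fly heads. The genes were Yp1, Yp2, Yp3, fit and Sxe2, 5 of the 17545 genes in the count tables, and they were taken by their locus tags. The rule used no measured value, but the genes were chosen with earlier results of these data known. Heads of 5-day-old female Drosophila melanogaster were compared between 2 groups of 3 libraries. The labels give their genotype as W+VDRC, while the paper describes its wild-type flies as Canton-S. Mothers of ND flies ate normal food with 10% sucrose and mothers of HSD-F1 flies ate a diet with 20% sucrose, while HSD-F1 flies themselves are described as raised on the normal diet. In the paper HSD-F1 flies come from matings of flies raised on the diet with 20% sucrose, which is not limited to mothers. Each library pooled several heads. The methods mention virgin females for experiments in general and do not say whether the flies used for RNA-seq had mated.

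Yolk proteins are the food store of the fly egg. They are made by the female fat body and by the follicle cells of the ovary, secreted into the hemolymph and taken up by the growing oocyte through the receptor Yolkless. In the fat body their genes are switched on by the female form of the transcription factor Doublesex and are tuned by nutrition, ecdysone and juvenile hormone, and the sheet of fat body inside the head capsule makes their RNA as well. The secreted peptide Fit, also a female fat body product, is released after a protein meal and reduces the appetite for protein through the insulin-producing cells. Sxe2 encodes a lipase-like enzyme of head fat cells that was named for its sex-specific expression and is known for a male bias.

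The libraries held from 20266352 to 26190694 counts on genes. The defining genes of the labelled tissue were present, and the opsin gene ninaE averaged 23043 ± 1046 CPM in ND heads against 25316 ± 5013 CPM in HSD-F1 heads (SD, n = 3 each). CPM is the usual library-scaled count, here with TMM factors, which correct for differences in RNA composition. The summed level of 11 male genes lay between 12.0 and 16.3 CPM, and 7 of the 11 had at most 3 counts in every library. Most of this sum was lncRNA:roX1, at 10.4 to 14.4 CPM, and lncRNA:roX2 and betaTub85D also had counts in every library. The summed level of 23 ovary and egg shell genes was 11.8 to 118 CPM in ND and 14.0 to 31.6 CPM in HSD-F1 libraries, highest in ND replicate 3, with Femcoat and bam at 0 counts throughout.

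The 3 yolk protein genes lie on the X chromosome of Release 6 of the genome. Yp2 (Dmel_CG2979, 10050951 to 10052636, minus strand) and Yp1 (Dmel_CG2985, 10053811 to 10055498, plus strand) are neighbours that point away from each other, with 1174 bases between their starts. Yp3 (Dmel_CG11129, 13759546 to 13761547, plus strand) lies 3704 kb from Yp1. Yp1 and Yp2 have 2 exons and Yp3 has 3, and their coding parts span 439, 442 and 420 codons for Yp1, Yp2 and Yp3. fit (Dmel_CG17820, 21883924 to 21884454, minus strand) and Sxe2 (Dmel_CG4979, 16083878 to 16087222, plus strand) lie on chromosome 3R. The fit gene is a single exon with 121 codons, and Sxe2 has 387 codons. The use of strand in counting is not given in the sources used here, so overlapping genes were checked. An antisense RNA gene shares 875 of the 1611 exonic bases of Yp1 and had 0 counts in all libraries. Counting that ignored strand and dropped reads on shared bases could give 0 as well. The check therefore cannot tell whether Yp1 reads were lost. A non-coding gene on the same strand shares 32 exonic bases with fit and held 105 counts over the 6 libraries, 0.163% of those of fit. CG31465, on the opposite strand, shares 67 exonic bases with fit and had 0 counts. Sxe2 lies within Mhcl, a myosin-like gene on the opposite strand, with 0 shared exonic bases. Mhcl held more reads than Sxe2, 39600 counts over the 6 libraries.

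No difference between ND and HSD-F1 heads was found in any of the 5 genes. All 5 were tested, and 0 passed an adjusted p-value of 0.05 in the quasi-likelihood test of edgeR (Benjamini-Hochberg), a threshold that 0.0664% of all 12048 genes tested passed. An unadjusted p-value under 0.05 was likewise found for 0 of the 5, compared with 5.07% of all genes, 2.91% higher and 2.16% lower in HSD-F1. When a change of 1.5-fold was required as well, the count was again 0 of 5, against 1.81% of all genes, 1.14% higher and 0.672% lower in HSD-F1. The groups overlapped in all 5 genes, while 11.8% of all genes did not overlap, 6.67% with higher and 5.17% with lower values in HSD-F1. For Yp1, Yp2, Yp3 and Sxe2 the 95% interval of the difference excluded a change of 1.5-fold in either direction, and for fit it did not.

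**Figure D1:**
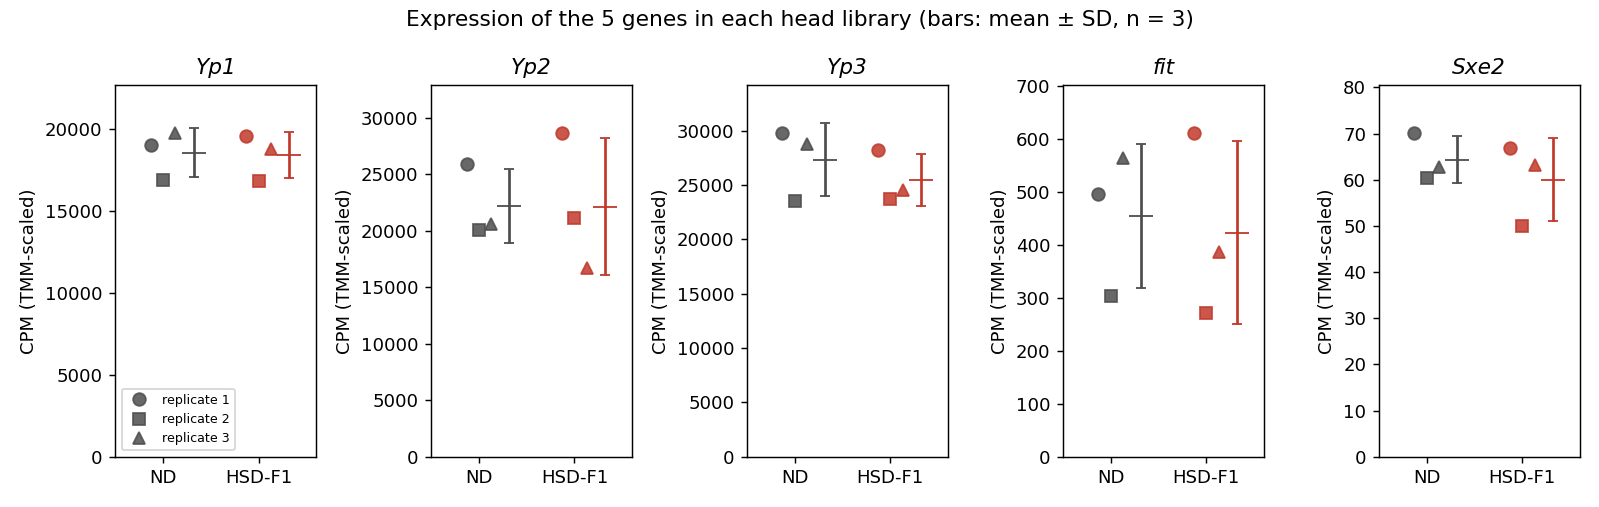
Expression of Yp1, Yp2, Yp3, fit and Sxe2 (CPM, TMM-scaled, each axis from 0) in the 3 ND (grey) and 3 HSD-F1 (red) head libraries. Symbols mark the replicate number, and bars show the mean ± SD of 3 libraries. The groups overlap in every panel, and fit spreads most, from 271 to 611 CPM.

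Yp1 was the steadiest of the yolk protein genes. ND replicates 1, 2 and 3 had 19034, 16889 and 19721 CPM of it, and HSD-F1 replicates 1, 2 and 3 had 19543, 16829 and 18784 CPM. The library numbered 2 was lowest in each group, and the other libraries lay close together. The ND libraries averaged 18548 ± 1477 CPM and the HSD-F1 libraries 18385 ± 1400 CPM (SD, n = 3 each). The log2 fold change of HSD-F1 relative to ND was -0.01 ± 0.11 (standard error), with a 95% interval of -0.27 to 0.25 (adjusted p = 0.992 from the edgeR test). A two-sided exact permutation test of the CPM gave p = 0.7, where the smallest value that 3 libraries against 3 allow is 0.1. ND replicate 3, the library with the most ovary RNA, also had the highest Yp1 level. Yp2 was instead highest in HSD-F1 replicate 1 (28603 CPM) and Yp3 in ND replicate 1 (29752 CPM). Yp1 had a log2 fold change of 0.03 when ND replicate 3 was left out. The part of ovary RNA in the Yp1 level was not tested.

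Yp2 varied more than its neighbour. ND replicates 1, 2 and 3 had 25919, 20061 and 20564 CPM, and HSD-F1 replicates 28603, 21094 and 16658 CPM. HSD-F1 replicates 1 and 3 were the highest and the lowest of all 6 libraries, so the HSD-F1 group spanned the whole ND range. The means were nearly equal, at 22181 ± 3247 CPM for ND against 22118 ± 6038 CPM for HSD-F1 (SD, n = 3 each). The log2 fold change was -0.0041 ± 0.20 (standard error), with a 95% interval of -0.46 to 0.45 (adjusted p = 0.999, same edgeR test, and p = 1.0 from the exact permutation test). Its sign and size depended on single libraries of either group. The log2 fold change was -0.23 without HSD-F1 replicate 1, 0.16 without HSD-F1 replicate 3, 0.03 without HSD-F1 replicate 2 and 0.12 without ND replicate 1, none with an adjusted p-value under 0.05.

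Yp3 was the most abundant member. The ND replicates had 29752, 23544 and 28748 CPM, and the HSD-F1 replicates 28197, 23738 and 24535 CPM. ND replicates 1 and 3 and HSD-F1 replicate 1 were high, and the lowest library of all was ND replicate 2. The log2 fold change was -0.10 ± 0.13 (standard error), with a 95% interval of -0.40 to 0.20 (adjusted p = 0.964, same edgeR test). The exact permutation test gave p = 0.5. Among all genes, Yp3, Yp2 and Yp1 ranked 2, 4 and 5 by total counts.

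Together the 3 genes took from 5.86% to 7.64% of all counts of a library. ND replicates 1, 2 and 3 gave 7.36%, 6.16% and 7.08%, and HSD-F1 replicates 1, 2 and 3 gave 7.64%, 6.13% and 5.86%. The mean share was 6.87 ± 0.627% for ND against 6.54 ± 0.957% for HSD-F1 (SD, n = 3 each), and the groups overlapped. In bulk RNA, the number of fat body cells and the yolk protein RNA per cell cannot be told apart.

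**Figure D2:**
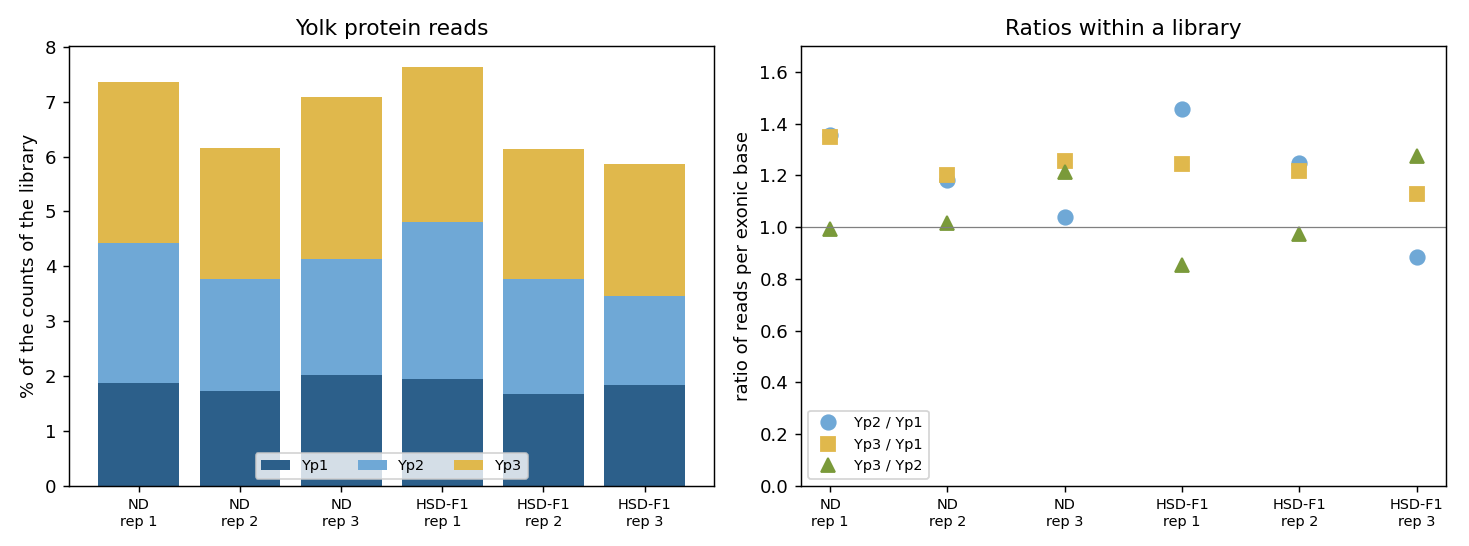
Left, the percent of the counts of each library that fell on Yp1, Yp2 and Yp3, stacked. Right, ratios of reads per exonic base between the genes within a library, where 1 means equal levels. The stacked share lies between 5.86% and 7.64%, and the ratio of Yp2 to Yp1 spreads widest, from 0.883 to 1.46.

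The mix of yolk protein RNA was compared within libraries, because such a ratio needs no scaling between them. Per exonic base, ND replicates 1, 2 and 3 had a ratio of Yp2 to Yp1 of 1.36, 1.18 and 1.04, and HSD-F1 replicates 1, 2 and 3 a ratio of 1.46, 1.25 and 0.883. In each group the library numbered 1 had the highest ratio and the library numbered 3 the lowest. The group means were 1.19 ± 0.159 and 1.20 ± 0.291 (SD, n = 3 each) in ND and HSD-F1. The ratio of Yp3 to Yp1 was tighter and had a range of 1.13 to 1.35 per exonic base over the 6 libraries. Yp2 thus changed its place in the order of levels per length between libraries. It was above Yp3 in ND replicate 1 and in HSD-F1 replicates 1 and 2, and below Yp1 in HSD-F1 replicate 3.

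On the scale of CPM per kb of exonic length, the levels over the 6 libraries were 14143 ± 1489 for Yp3, 13690 ± 2680 for Yp2 and 11463 ± 801 for Yp1 (SD, n = 6). Yp3 and Yp2 differed by less than this spread, and Yp1 overlapped with Yp2, while Yp3 was above Yp1 in every library. Reads dropped over the antisense gene would lower Yp1 here and in the ratios above, and this was not tested. fit followed at 828 ± 264 and Sxe2 at 34.0 ± 3.76 CPM per kb. Between the yolk protein genes and fit stood only Desat1, a fatty acid desaturase, among the 11 other fat body genes compared, with 964 ± 116 CPM per kb, and the ranges of fit and Desat1 overlapped. The lipoprotein precursor gene apolpp, whose product carries most lipid in the hemolymph, had 391 ± 64.9 CPM per kb.

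**Figure D3:**
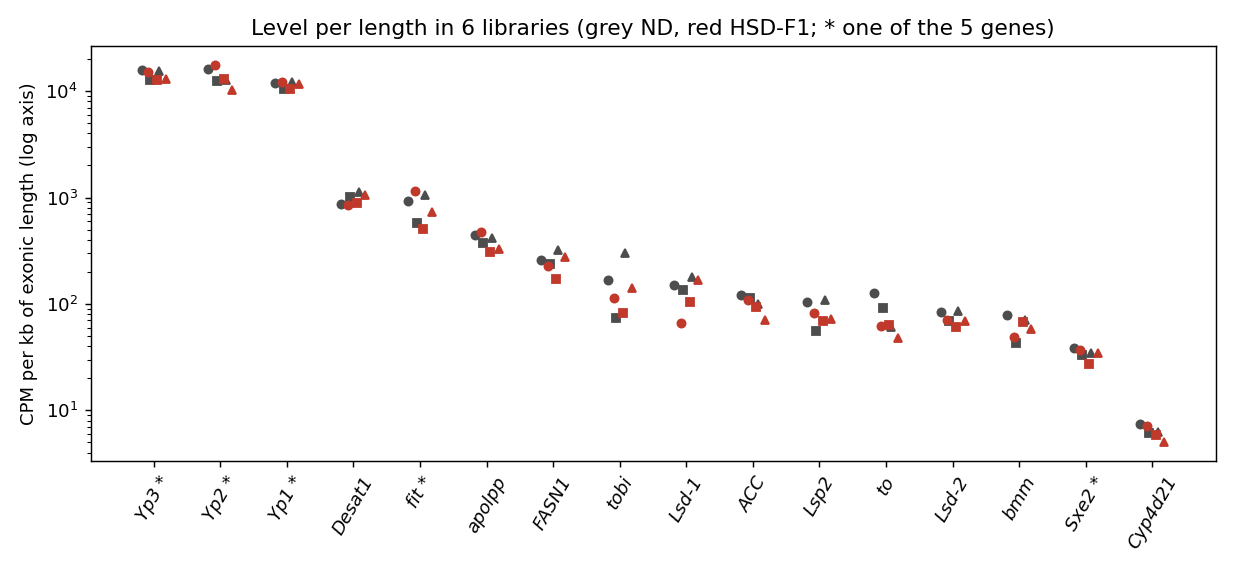
CPM per kb of exonic length (log axis) in 3 ND (grey) and 3 HSD-F1 (red) libraries for the 5 genes, marked with an asterisk, and 11 other fat body genes in order of their mean level. Symbols mark replicates 1 (circle), 2 (square) and 3 (triangle). The yolk protein genes lie at 10295 CPM per kb or more in all 6 libraries, and the next gene, Desat1, lies at 964 on average.

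Of the 5 genes, fit had the largest spread between libraries of a group. ND replicates 1, 2 and 3 had 497, 304 and 566 CPM of fit, and HSD-F1 replicates 1, 2 and 3 had 611, 271 and 388 CPM. The library numbered 2 was lowest in each group, and the highest library had 2.25 times the level of the lowest. The within-group SD of fit on the log2 scale was 0.53, above that of 98.4% of the 6929 genes with a mean of at least 10 CPM. The corresponding share was 93.4% for Yp2, 60.4% for Yp3 and 35.5% for Yp1. The mean level of fit was 456 ± 136 CPM for ND against 423 ± 173 CPM for HSD-F1 (SD, n = 3 each). Its log2 fold change was -0.11 ± 0.31 (standard error), with a 95% interval of -0.81 to 0.60, that is from 0.569-fold to 1.52-fold (adjusted p = 0.981, same edgeR test, and p = 0.9 from the exact permutation test). It was -0.47 when HSD-F1 replicate 1 was left out, -0.33 without ND replicate 2, 0.13 without HSD-F1 replicate 2 and 0.08 without ND replicate 3, none with an adjusted p-value under 0.05.

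Sxe2 was the least abundant of the 5 genes. The ND replicates had 70.0, 60.3 and 62.7 CPM, and the HSD-F1 replicates 66.9, 50.0 and 63.2 CPM. HSD-F1 replicate 2 was the lowest, and the other HSD-F1 libraries lay within the ND range. The log2 fold change was -0.10 ± 0.13 (standard error), with a 95% interval of -0.39 to 0.19 (adjusted p = 0.964, same edgeR test). The exact permutation test gave p = 0.6. Leaving out HSD-F1 replicate 2 gave a log2 fold change of 0.0138. Cyp4d21, a cytochrome P450 of head fat cells that is also known for a male bias and was named sex-specific enzyme together with Sxe2, averaged 12.0 ± 1.20 CPM in the ND against 11.0 ± 1.91 CPM in the HSD-F1 libraries (SD, n = 3 each). It was chosen after its values were seen.

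**Figure D4:**
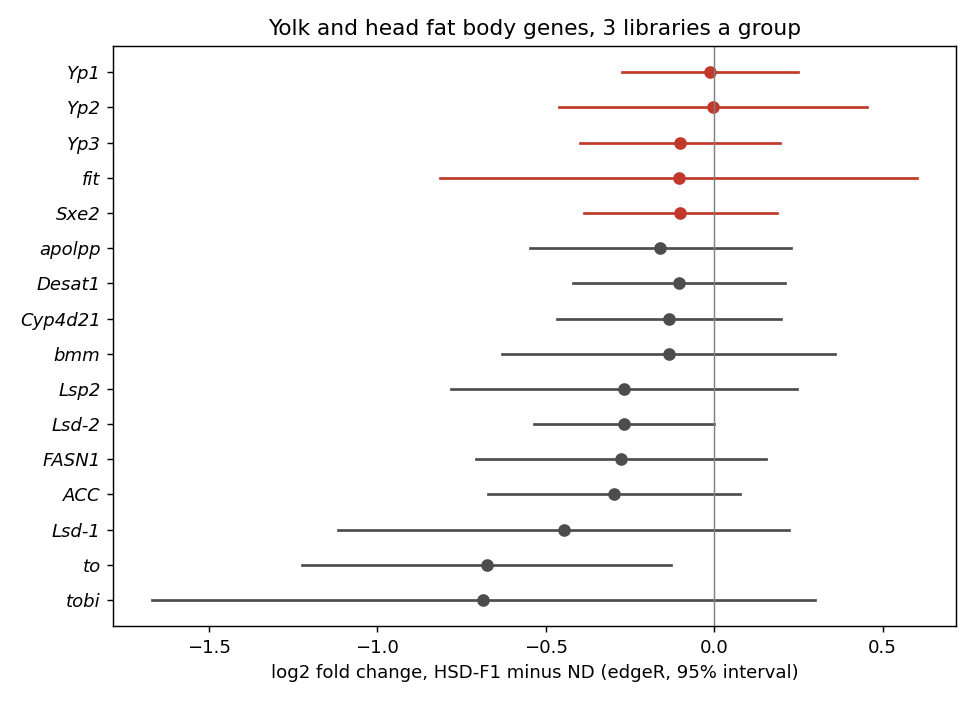
Log2 fold change of HSD-F1 relative to ND (edgeR) with its 95% interval for the 5 genes (red) and 11 other fat body genes (grey), from 3 libraries a group. Every red interval includes 0. Among the grey ones, those of to and Lsd-2 end below 0, at log2 fold changes of -0.68 and -0.27.

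The library numbered 2 was the lowest of its group, in ND as well as in HSD-F1, for 4 of the 5 genes, namely Yp1, Yp3, fit and Sxe2. This pattern, which was noticed after the values were seen, held for 8.01% of the 6929 genes with a mean of at least 10 CPM. It also held for 4 of 10 other fat body genes, Lsp2, FASN1, Lsd-2 and tobi. Among them tobi, a glucosidase gene of the fat body that responds to diet and insulin, stood at 354, 156 and 634 CPM for ND replicates 1, 2 and 3, and at 237, 174 and 300 CPM for the HSD-F1 replicates. Relative to apolpp counts, fit was still lowest in the libraries numbered 2, with ratios of 0.0683 in ND and 0.0746 in HSD-F1 against 0.0954 to 0.115 in the other 4 libraries. Yp1 was not, and its ratio to apolpp ranged from 3.51 in HSD-F1 replicate 1 to 4.88 in HSD-F1 replicate 3. None of the 5 genes separated the groups in this ratio.

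The profile of each gene over the 6 libraries was compared with that of other genes by the root mean square difference of log2 CPM after centring each gene on its own mean. For Yp1 the difference was 0.08 to Yp3, which placed Yp3 at rank 233 of 6928 genes, and 0.24 to Yp2, at rank 5792. Seen from Yp2, the same difference placed Yp1 at rank 2234, so the rank depended on which of the neighbouring genes was the starting point. The genes nearest to Yp1 were hrm, Orai, a store-operated calcium channel, Ent3, a nucleoside transporter, CG5902 and yellow-h, at differences of 0.02 to 0.03. For fit the nearest genes were Amy-d, an amylase, CG17075, Adh, the alcohol dehydrogenase, Cyp6t1 and eater, a phagocytic receptor of blood cells. Their differences from fit were larger, at 0.21 to 0.26. Seen from fit, Yp3 stood at rank 91, at a difference of 0.32, while seen from Yp3, fit stood at rank 6333. The genes nearest to Sxe2 were Daao2, CG14275, CG32191, LKRSDH and rumpel, at differences of 0.04 to 0.07.

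Genes of sex determination and of hormone signaling were looked at next. Of 15 sex determination and hormone genes, 15 were tested, and 0 had an adjusted and 0 an unadjusted p-value under 0.05, where 0.0664% and 5.07% of all genes did. Their median log2 fold change was 0.03, against -0.0026 for all genes tested. With single libraries left out it ran from -0.11 without HSD-F1 replicate 1 to 0.14 without HSD-F1 replicate 3. The most abundant were Sxl, the master gene of female identity, Eip75B, a nuclear receptor induced by ecdysone, fru, the gene of courtship circuits, and tai, a coactivator of hormone receptors. Sxl averaged 319 ± 12.8 CPM in the ND libraries against 331 ± 49.7 CPM in the HSD-F1 libraries (SD, n = 3 each). For Eip75B, fru and tai the log2 fold changes were 0.02, 0.05 and -0.07. ND and HSD-F1 values were fully apart in 1 of these 15 genes, compared with 11.8% of all genes. This was usp, a subunit of the ecdysone receptor, with 42.2 to 43.8 CPM for ND and 45.1 to 52.5 CPM for HSD-F1. Overlap in these lists was checked with TMM scaling only. dsx, the gene of Doublesex, was added after its values were seen. It averaged 42.2 ± 2.29 CPM for ND against 39.3 ± 9.66 CPM for HSD-F1 (SD, n = 3 each). The lowest library for dsx was HSD-F1 replicate 2, at 29.5 CPM, where Yp1, fit and Sxe2 were lowest too. Yp2 was instead lowest in HSD-F1 replicate 3 and Yp3 in ND replicate 2, and a link to dsx was not tested. Counts per gene also cannot show which form of Doublesex was made.

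Among 7 genes of lipoproteins, yolk uptake and lipid transfer, 0 had an adjusted and 0 an unadjusted p-value under 0.05, against 0.0664% and 5.07% of all genes. The median log2 fold change was -0.11. The unadjusted count was 1 without ND replicate 2, without HSD-F1 replicate 1 or with the replicate number as a block. apolpp, which led them in abundance, averaged 4860 ± 391 CPM for ND against 4351 ± 1055 CPM for HSD-F1 (SD, n = 3 each). Apoltp, which loads lipid onto lipoproteins, and the lipoprotein receptor genes LpR1 and LpR2 had log2 fold changes of 0.12, -0.02 and -0.11. yl, which encodes the oocyte receptor Yolkless, had 91 of its 96 ND counts in replicate 3 and 13 of its 16 HSD-F1 counts in replicate 3, the libraries with the most ovary and egg shell RNA of their groups. It was chosen after its values were seen.

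All 10 of the other fat body genes were lower in HSD-F1 than in ND heads, compared with 6095 of the 12048 genes tested. Their median log2 fold change was -0.27. No member had an adjusted p-value under 0.05, and 2 had an unadjusted one, where 2.16% of all genes were lower with such a p-value. The groups overlapped in all 10 genes. The list was written with earlier results of these data known. Genes of 1 tissue need not vary independently between libraries, so the 10 signs are not 10 separate results. takeout (to), a circadian gene of the head fat body that acts in feeding, was measured at 158, 113 and 76.3 CPM in the ND libraries. The HSD-F1 libraries had 78.4, 79.3 and 59.8 CPM of it, with a log2 fold change of -0.68 ± 0.24 (standard error, unadjusted p = 0.0214 and adjusted p = 0.911 from the edgeR test). Without ND replicate 1 the log2 difference of to was -0.39, and its unadjusted p-value was above 0.05 there and without HSD-F1 replicate 3. Lsd-2, which encodes a protein of lipid droplet surfaces, averaged 368 ± 40.8 CPM for ND against 305 ± 23.4 CPM for HSD-F1 (SD, n = 3 each), with an unadjusted p = 0.0488 and an adjusted p = 0.911 from the same edgeR test. The unadjusted p-value of Lsd-2 was above 0.05 without ND replicate 1, ND replicate 3, HSD-F1 replicate 2 or HSD-F1 replicate 3. The most abundant genes of this list were Desat1, FASN1, a fatty acid synthase, and ACC, the carboxylase that feeds it, with log2 fold changes of -0.10, -0.28 and -0.30. The number of genes of this list with an unadjusted p-value under 0.05 ran from 0 without ND replicate 1 to 6 with the replicate number as a block, and with single libraries left out the median ran from -0.36 without ND replicate 2 to -0.15 without ND replicate 3. Whether the list and the yolk protein genes differed was not tested.

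**Figure D5:**
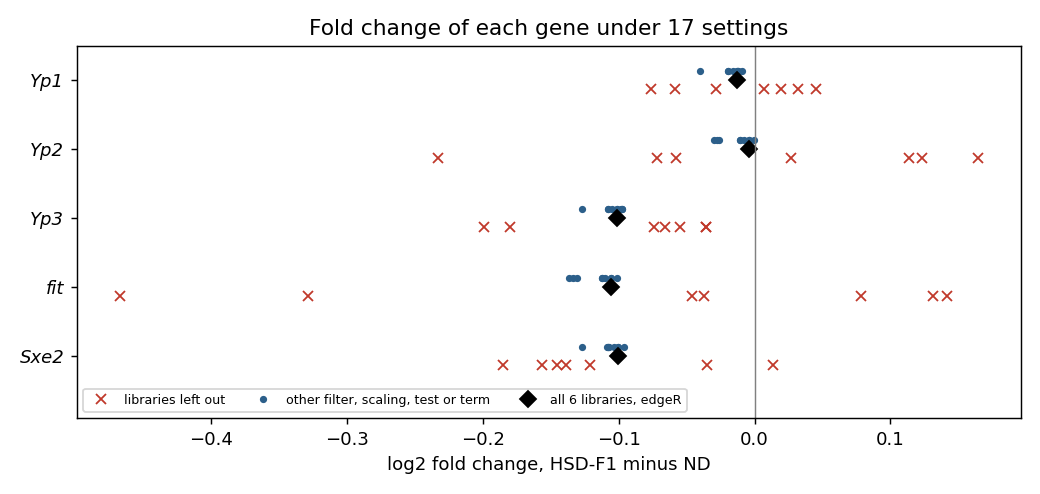
Log2 fold change of HSD-F1 relative to ND for each of the 5 genes with all 6 libraries (diamond), under 9 other settings of the filter, scaling, test or model (dots), and with libraries left out (crosses). Dots stay near the diamond, while crosses spread from -0.47 to 0.14 for fit and from -0.23 to 0.16 for Yp2.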

How the data were processed

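Heads of female flies were sequenced by the authors after selection of polyadenylated RNA, as paired-end reads on a BGISEQ platform. The deposited tables hold whole-number read counts per gene, without normalization or pooling, with RefSeq locus tags, coordinates of Release 6 of the genome and the exonic length of each gene. The authors kept uniquely mapped reads. The submitters' processing notes name HISAT2 2.0.4, Bowtie2 2.2.5, RSEM 1.2.12 and DESeq2 1.4.5 without their roles. The counting program and strand setting are not given in the sources used here. Symbols were taken from RefSeq's gene table, which held 17504 of the 17545 genes, and exons from the Ensembl annotation of the same assembly.

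The models were fitted in R 4.3.3 with edgeR 4.0.16, and alternatives with limma 3.58.1 and DESeq2 1.42.0. Values for single genes were computed in Python 3.11.15 with pandas 2.3.3, numpy 2.4.6, SciPy 1.17.1 and matplotlib 3.10.9. The filter kept genes whose counts summed to at least 10, TMM gave the scaling, and the quasi-likelihood functions glmQLFit and glmQLFTest gave the test, in a model of group alone. Standard errors came from the coefficient and the F statistic, and 95% intervals from them with 8.40 moderated degrees of freedom. The models were tested on simulated counts. Log2 CPM used a prior count of 2. The exact permutation test was two-sided and ran over all 20 ways to assign the libraries. With 3 or fewer counts in every library a gene was taken as at the limit of detection. The sources do not say how the replicates of a group were raised, so p-values measure the spread between these libraries.

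The 5 genes and the gene lists were chosen with earlier results of these data known. Genes named from a list were up to 4 of the most abundant ones, those with an unadjusted p-value under 0.05 and those behind a count given. The genes dsx, yl and Cyp4d21 fell outside this rule and were added after their values were seen. Profiles were compared for the 5 genes nearest to each of Yp1, fit and Sxe2. Alternatives changed the normalization, filter, test, model and libraries. Mature sequences, promoters and proteins were not used here, and neither were reads or ChIP-seq data.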

Additional observations from a re-analysis of the deposited data

How the results depend on the processing

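No setting gave any of the 5 genes an adjusted or an unadjusted p-value under 0.05 in 16 alternatives each, and the lowest adjusted p-value was 0.697, for fit without HSD-F1 replicate 1 in the edgeR test. Changing the filter, the scaling, the test or the model kept the sign of all 5 genes, and leaving out single libraries reversed it for 4 of them. With single libraries left out, the log2 fold change ranged from -0.0763 to 0.0453 for Yp1, from -0.23 to 0.16 for Yp2, from -0.47 to 0.13 for fit and from -0.185 to 0.0138 for Sxe2. Yp3 stayed below 0 throughout, at -0.20 to -0.04. With only the libraries numbered 1 and 2 of each group the values were 0.0195 for Yp1, 0.11 for Yp2 and 0.14 for fit. The cause of these reversals was not tested.

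The number of genes past the unadjusted thresholds was 218, and it was 119 with at least 10 counts in every library, a filter that left 9708 genes to test, and 140 with DESeq2. With libraries left out it ranged from 203 to 252. The number past the adjusted threshold was 8, and it was 28 with DESeq2, 5 with limma-voom and 18 with only the libraries numbered 1 and 2. With single libraries left out it ranged from 4 to 21, the highest without ND replicate 3. With a replicate block, that is the replicate number as a further term, it was 38. Deviations of the libraries numbered 1, 2 and 3 from their group means had correlations of 0.245, 0.00838 and 0.279 across 12048 genes. Between libraries of unlike numbers the correlations ran from -0.301 to 0.0704. Libraries numbered 1 and 3 were thus most alike those of their own number, and libraries numbered 2 were not. Whether the numbers pair the samples is not settled by these values, and the main model used group alone. Under the block the log2 fold changes of Yp1, Yp2, Yp3, fit and Sxe2 were -0.01, -0.03, -0.10, -0.14 and -0.11.

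Settings for other genes were added after seeing the data. The 10 other fat body genes were lower in HSD-F1 in all alternatives except without ND replicate 1, where 9 of 10 were lower. Depth limited upd2, with at most 13 counts in a library, while fit had 7067 counts or more in every library.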

Other observations

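Genes for signals that fat body and insulin-producing cells send in response to food, the pathway in which Fit acts, were also read. Of 11 such genes, 0 passed an adjusted p-value of 0.05 and 3 an unadjusted one in the edgeR test, where 5.07% of all genes passed the unadjusted one. Ilp6, the insulin-like peptide made by the fat body, was at 59.8, 72.3 and 77.2 CPM in the ND libraries. The HSD-F1 libraries had 78.7, 89.5 and 86.1 CPM, all above the ND libraries on this TMM scale. The log2 fold change of Ilp6 was 0.28 (unadjusted p = 0.0374 and adjusted p = 0.911 from the edgeR test). ImpL2, which encodes a secreted binder of insulin-like peptides, was at 32.6, 31.8 and 28.9 CPM in the ND libraries and at 40.0, 33.6 and 44.3 CPM in the HSD-F1 libraries, again without overlap. ND and HSD-F1 values were fully apart in 3 of these 11 genes, 1 of them (upd2) lower in HSD-F1, against 11.8% of all genes. ImpL2 had a log2 fold change of 0.34 (unadjusted p = 0.0235 and adjusted p = 0.911 from the edgeR test). upd2, a leptin-like signal of the fat body, was at 10, 7 and 13 counts in the ND libraries and at 0, 1 and 3 counts in the HSD-F1 libraries (unadjusted p = 0.00457 and adjusted p = 0.911 from the same test). Ilp2, made by the insulin-producing cells, averaged 76.8 ± 3.74 CPM for ND against 70.8 ± 20.3 CPM for HSD-F1 (SD, n = 3 each), and the most abundant genes of the list, the growth-blocking peptide gene Gbp2 and CCHa2, a nutrient-dependent peptide hormone, had log2 fold changes of 0.05 and -0.36. The unadjusted p-values of Ilp6 and ImpL2 depended on the libraries included, and with libraries left out the log2 fold changes ranged from 0.18 to 0.36 and from 0.19 to 0.44. That of Ilp6 also depended on the scaling. With total counts only, the edgeR test gave an unadjusted p = 0.0735 for Ilp6 and 0.0301 for ImpL2.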
